A study of Homo sapiens with 4 samples.

Results

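Sestrins and their partner regulators are the genes through which cells report amino acid supply and stress to the growth kinase complex mTORC1. The 10 genes described here were chosen by symbol: the sestrins SESN1, SESN2 and SESN3, the stress-induced inhibitor DDIT4 (REDD1), the GATOR1 subunits DEPDC5, NPRL2 and NPRL3, the arginine sensor CASTOR1, and the Rag GTPases RRAGC and RRAGD. Each symbol matched 1 row of the 78932 Ensembl genes in the deposited count table. The cells were the human multiple myeloma line RPMI 8226 (spelled RPMI82266 in the sample labels), and bulk RNA-seq libraries were made 72 hours after they were given antisense oligonucleotides of locked nucleic acid (LNA ASO), short modified strands that pair with a target RNA. Cells of the CELF2 ASO group received 5 nM of an oligonucleotide against CELF2, whose product binds RNA and acts in splicing and mRNA turnover. Cells of the control group received a control LNA ASO, for which no dose is given. Each group had 2 libraries. Both groups were transfected with an oligonucleotide, so neither stands for untreated cells. The labels do not tell whether the 2 libraries of a group were separate cultures or different oligonucleotides, and p-values therefore cover only the spread between libraries, which may be technical.

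As background, mTORC1 drives protein synthesis and growth when amino acids are present. The Rag GTPases work as pairs, RRAGA or RRAGB with RRAGC or RRAGD, and bring mTORC1 to the lysosome, where RHEB switches it on. GATOR1 turns the Rag pair off and GATOR2 restrains GATOR1. Sestrins and CASTOR1 bind GATOR2 and hold it back when leucine or arginine is scarce, and DDIT4 acts on a separate branch through the TSC complex that keeps RHEB off. Plasma cells and myeloma cells, which secrete large amounts of immunoglobulin, place a heavy demand on amino acids and on the stress responses that induce SESN2 and DDIT4.

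The upstream sequences of 3 genes are shown because SESN2 and DDIT4 had the largest rises among the 10 genes and RRAGC the largest rise among the Rag genes. Each run is the 250 bases before the RefSeq transcription start (GRCh38.p14), read 5′ to 3′ on the gene's strand, with capitals marking CCAAT boxes and the E-box CACGTG on either strand.
SESN2 (chr1:28259268-28259517, plus strand): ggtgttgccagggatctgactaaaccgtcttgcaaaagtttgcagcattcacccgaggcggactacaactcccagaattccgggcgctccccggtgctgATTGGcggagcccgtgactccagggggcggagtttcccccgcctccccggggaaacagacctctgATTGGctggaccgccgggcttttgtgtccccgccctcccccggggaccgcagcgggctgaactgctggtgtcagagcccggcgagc
DDIT4 (chr10:72273674-72273923, plus strand): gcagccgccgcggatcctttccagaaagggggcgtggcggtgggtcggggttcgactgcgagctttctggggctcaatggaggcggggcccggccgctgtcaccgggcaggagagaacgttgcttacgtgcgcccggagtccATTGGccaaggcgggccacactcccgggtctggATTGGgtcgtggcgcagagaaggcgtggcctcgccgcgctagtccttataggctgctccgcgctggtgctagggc
RRAGC (chr1:38859773-38860022, minus strand): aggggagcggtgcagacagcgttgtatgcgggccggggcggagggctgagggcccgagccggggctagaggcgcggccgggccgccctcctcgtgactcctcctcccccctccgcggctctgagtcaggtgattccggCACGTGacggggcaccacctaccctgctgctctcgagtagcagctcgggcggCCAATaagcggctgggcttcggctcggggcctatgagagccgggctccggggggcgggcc

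Windows of this kind were present for 9 of the 10 genes, 13 windows in all, and 5 motifs were searched on both strands. SESN2 held CCAAT boxes starting 151 and 86 bases before the start, and DDIT4 held them 108 and 75 bases before it. At least 2 CCAAT boxes occurred in 9.53% of the 35116 RefSeq windows of the same length, and at least 1 in 32%. RRAGC held a CCAAT box 60 bases and an E-box 112 bases before the start. CACGTG occurred in 6.34% of all windows. The core of the C/EBP-ATF response element, TGATGNAA, occurred in 3.14% of all windows and was not among these letters in any of the 13, and TATAAA (10.7% of all windows) was absent from them as well. The GC box GGGCGG, present in 42.6% of all windows, was found 2 times for SESN2 and 4 times for RRAGC. CCAAT and GC boxes were not particular to genes that rose. NPRL2, CASTOR1 and some windows of SESN1 also held a CCAAT box. GC boxes were found 1 to 7 times per window for SESN1, 3 to 5 times for DEPDC5, 3 times for CASTOR1 and 1 time for NPRL2. SESN3 and NPRL3 held none of the 5 motifs. The marked matches did not overlap any other match. A match describes letters only, and the start sites in use in these cells were not measured.

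The libraries held 23599190 to 29161298 counts. CELF2 itself fell 2.43-fold, from 128 and 127.9 to 56.57 and 48.76 CPM (counts scaled to the library size after adjustment by the trimmed mean of M values, TMM; edgeR adjusted p = 2.88e-05). Of 19511 genes that passed the filter on low counts, 55.5% passed an adjusted p of 0.05 and were called, so a call was common for any gene. The biological coefficient of variation was 3.65% in the control pair and 13.7% in the CELF2 ASO pair. All 10 plasma cell and myeloma markers had more than 3 counts in some library, and their summed level was 4485 to 5033 CPM under the control ASO and 12011 to 12366 CPM under the CELF2 ASO, of which IGLC2 rose 5.79-fold. Without IGLC2 the other 9 summed to 3167 and 3379 CPM under the control ASO and 3861 and 3311 CPM under the CELF2 ASO. Of the 10 markers 4 were called higher and 4 lower, SDC1 and PRDM1 among the latter. The summed level of 6 myeloid markers was 7.97 to 8.4 CPM under the control ASO and 3.03 to 3.43 CPM under the CELF2 ASO, with LYZ and S100A8 at 0 in all 4. The 6 T and NK cell markers summed to 267 to 268 and 40.2 to 67 CPM, nearly all of it CD8B, and 6 stromal and epithelial markers to 227 to 229 and 124 to 131 CPM, with VIM and EPCAM highest. Their part in the results below was not tested. In these bulk libraries, a change in the share of some cells and a change in RNA per cell cannot be told apart.

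Of the 10 genes, 5 were called higher (SESN2, SESN3, DDIT4, RRAGC and RRAGD), 2 were called lower (NPRL2 and NPRL3), 2 did not pass (SESN1 and DEPDC5), and CASTOR1 was too low to test. Over all tested genes 27.5% were called higher and 27.9% lower. For 8 of the 9 that were tested, every library of a group lay on its own side of the other group, against 79.6% of all tested genes, and 4 of the 9 were called with a change of at least 2-fold, against 25.6%. The shares without overlap and called lower are near these backgrounds and are no result about the 10 genes. The other shares rest on few genes, chosen with earlier results of these data known, and were not tested against the backgrounds. Among tested protein-coding genes, a closer background, 63.3% were called in either direction. SESN3 had 4 counts in each control library, under the minimum of 10, and entered the test only through the CELF2 ASO libraries, so it had to differ to be tested. The 2 largest changes, in SESN2 and DDIT4, exceeded those of 98.4% and 96.3% of all tested genes in absolute size. RRAGD, NPRL2 and NPRL3 had changes near the middle of all tested genes, larger than 35.7%, 53.6% and 48.2% of them.

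**Figure D1:**
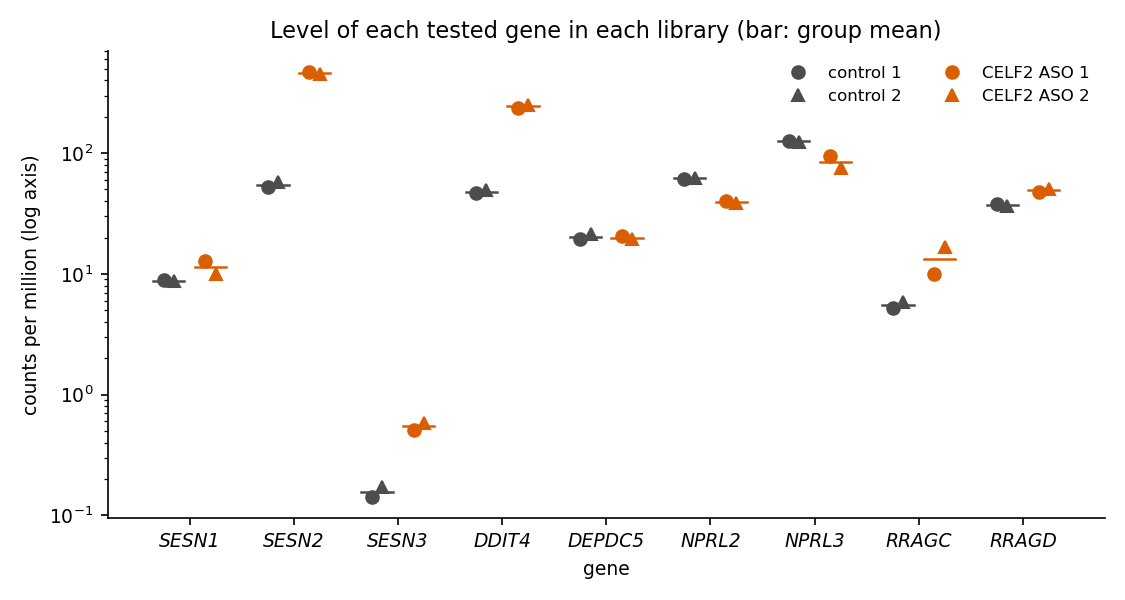
CPM on a log axis for the 9 tested genes in each library, with control libraries in grey, CELF2 ASO libraries in orange and a bar at each group mean. SESN2 and DDIT4 stand at 456 to 470 and 236 to 252 CPM under the CELF2 ASO against 52.4 to 57.3 and 46.4 to 49.6 CPM in the control, and DEPDC5 is the gene whose groups overlap.

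SESN2, a leucine-binding sestrin, had the largest rise of the 10 genes. Its level was 52.4 and 57.3 CPM under the control ASO and 470 and 456 CPM under the CELF2 ASO. Both CELF2 ASO libraries lay far above both control libraries, with the closest pair of libraries still 7.96-fold apart. The rise was 8.45-fold, or 3.08 in log2 units (SE 0.08, 95% interval 2.88 to 3.27; edgeR quasi-likelihood test, adjusted p = 2.16e-06). The gene (ENSG00000130766) spans chromosome 1, 28259527 to 28282491, on the plus strand of GRCh38, and shared no exon with another GENCODE 29 gene.

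SESN1, a sestrin known as a FOXO target, was slightly higher and was not called. It had 8.86 and 8.74 CPM under the control ASO and 12.7 and 10 CPM under the CELF2 ASO. The groups did not overlap, but CELF2_LNA_ASO replicate 2 lay only 1.13-fold above the higher control library. The difference in log2 units was 0.37 (SE 0.15, 95% interval 0.02 to 0.73), short of the threshold (edgeR adjusted p = 0.0702). Scaling by library totals alone gave an adjusted p of 0.0401, a 1 CPM filter 0.0448, and the fit that leaves out CELF2_LNA_ASO replicate 2 gave 0.000223, each past the threshold.

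SESN3, the remaining sestrin, was nearly silent. It had 4 and 4 counts under the control ASO and 14 and 14 under the CELF2 ASO, or 0.143 and 0.17 against 0.505 and 0.586 CPM. Summed over each pair the ratio was 3.49 (95% exact interval 1.55 to 8.86, counting error only). In log2 units the rise was 1.77 (SE 0.45, edgeR adjusted p = 0.0123). DESeq2 did not call it (adjusted p = 0.124), nor did the fits that leave out control_LNA_ASO replicate 1 (0.129), control_LNA_ASO replicate 2 (0.0784) or CELF2_LNA_ASO replicate 2 (0.0701). LNCRNA-IUR, an antisense gene that shares 93 exonic bases with SESN3, had 2 and 4 counts under the control ASO and 18 and 21 under the CELF2 ASO, and without a stated strand setting its reads cannot be told apart from those of SESN3 where they overlap.

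Per kilobase of exon, sestrin mRNA was mostly SESN2 in every library. SESN2 made up 89.7% and 90.6% of the summed sestrin level under the control ASO and 98.2% and 98.5% under the CELF2 ASO. The summed level went from 17.6 ± 0.981 to 136 ± 3.31 CPM per kb (SD, n = 2 each). SESN1 accounted for 10.2% and 9.32% of it under the control ASO and for 1.79% and 1.46% under the CELF2 ASO, although its own CPM was not lower.

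**Figure D2:**
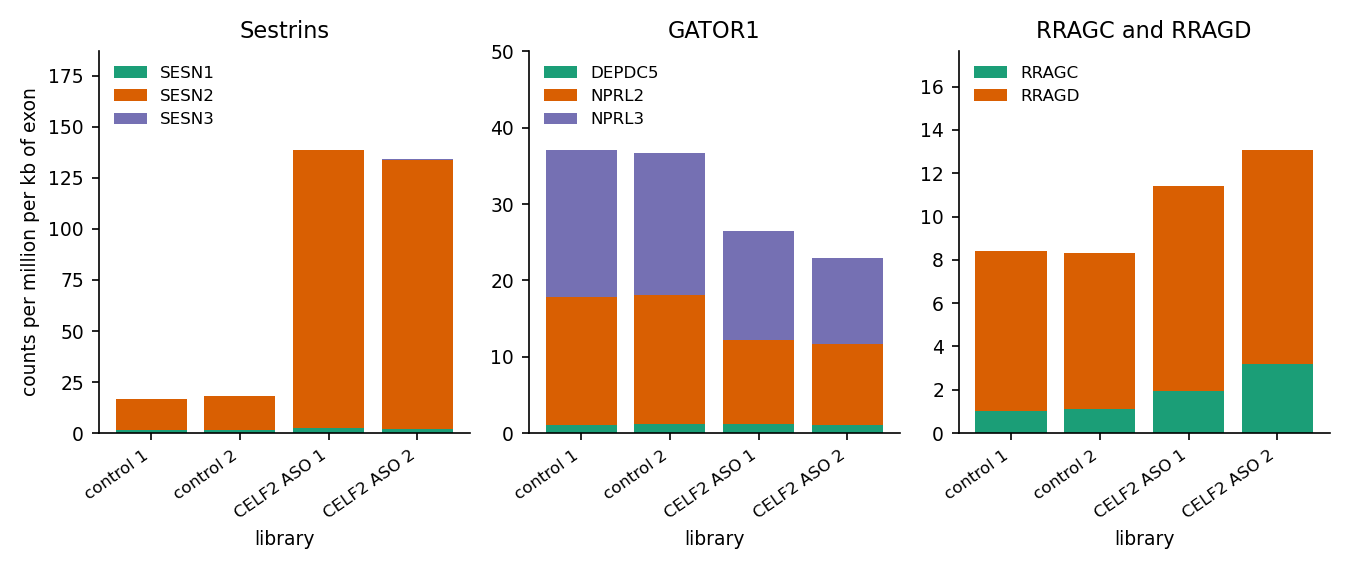
CPM per kb of exon in each library, stacked by gene for the sestrins, the GATOR1 subunits and the 2 Rag genes, each panel with its own axis from 0. The sestrin stack rises from 16.9 and 18.3 to 139 and 134 through SESN2, while the GATOR1 stack goes from 37.1 and 36.7 to 26.4 and 23.

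DDIT4, which encodes REDD1, a stress-induced inhibitor of mTORC1 that acts through the TSC complex, was also higher. It had 46.4 and 49.6 CPM under the control ASO and 236 and 252 CPM under the CELF2 ASO. The groups were separated by at least 4.76-fold, while libraries within a group differed by 1.07-fold. DDIT4 rose 5.08-fold, or 2.34 in log2 units (SE 0.08, 95% interval 2.15 to 2.54, edgeR adjusted p = 3.9e-06). Its locus on chromosome 10 (72273920 to 72276036, plus strand) has an antisense gene, DDIT4-AS1, that covers 41.2% of the DDIT4 exon bases. DDIT4-AS1 was not among the genes in the deposited counts. With no stated strand setting, reads from DDIT4-AS1 in the shared bases cannot be told apart from those of DDIT4. Their part in the rise of DDIT4 was not tested. DDIT4L, the paralog of DDIT4, went the other way, from 4.54 and 3.96 to 2.99 and 2.34 CPM, a fall of 0.67 on the log2 scale (edgeR adjusted p = 0.0236). For DDIT4L, the adjusted p was 0.0606 when scaled by library totals alone, 0.0628 by DESeq2 and 0.115 when control_LNA_ASO replicate 1 was left out, all short of the threshold.

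The GATOR1 genes, whose products together form the GTPase-activating complex for RRAGA and RRAGB, included no gene called higher. NPRL2, on chromosome 3 (50347330 to 50351091, minus strand), had 61.6 and 62.1 CPM under the control ASO and 40.5 and 38.8 CPM under the CELF2 ASO. Both CELF2 ASO values were lower, and the closest libraries of the 2 groups were 1.52-fold apart. NPRL2 fell 1.56-fold, or by -0.64 in log2 units (SE 0.07, edgeR adjusted p = 0.000276). NPRL3, the binding partner of NPRL2, lies on chromosome 16 (84271 to 138860, minus strand) and had 127 and 123 CPM under the control ASO and 94.1 and 74.7 CPM under the CELF2 ASO. It was lower in both, with the lower value in CELF2_LNA_ASO replicate 2. NPRL3 fell 1.48-fold, or by -0.57 in log2 units (SE 0.11, edgeR adjusted p = 0.00364).

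DEPDC5, the GATOR1 subunit that contacts the Rag pair and anchors the complex, lies on chromosome 22 (31753867 to 31908033, plus strand). It had 19.3 and 21.4 CPM under the control ASO and 20.4 and 19.5 CPM under the CELF2 ASO. The groups overlapped. In log2 units the difference was -0.02 (95% interval -0.27 to 0.22, edgeR adjusted p = 0.861), and it turned positive with library totals alone (0.092). Whether DEPDC5 differed from NPRL2 and NPRL3 in its change was not tested. Summed per kilobase, the GATOR1 level went from 36.9 ± 0.248 to 24.7 ± 2.44 CPM per kb (SD, n = 2 each).

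Both GATOR1 genes that fell share exon bases with a gene on the opposite strand. CYB561D2 covers 397 bases (10.8%) of NPRL2 exons and fell from 26.5 ± 0.79 to 14.5 ± 1.52 CPM (SD, n = 2; log2 fold change -0.87, edgeR adjusted p = 0.000498). MPG, a DNA glycosylase gene, covers 453 bases (6.85%) of NPRL3 exons and fell from 36.1 ± 4.74 to 23.7 ± 2.14 CPM (SD, n = 2; log2 fold change -0.61, edgeR adjusted p = 0.00399). With no stated strand setting, reads in these shared bases cannot be assigned, and their part in the falls of NPRL2 and NPRL3 was not tested.

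CASTOR1, the arginine sensor that binds GATOR2 (chromosome 22, 30285117 to 30289627, minus strand), was barely detected. It had 6 and 0 counts under the control ASO and 3 and 0 under the CELF2 ASO. A count of 0 allows up to 0.128 CPM in control_LNA_ASO replicate 2 and 0.126 CPM in CELF2_LNA_ASO replicate 2, counting error only. Summed over each pair the ratio was 0.498 (95% exact interval 0.0806 to 2.33), and no change was detectable at this depth. A protein-coding gene on the same strand covers 46% of the CASTOR1 exon bases and held 0 or 1 count per library, and how reads in the shared bases were counted is not given in the sources used here. Its close paralog CASTOR2 was expressed, at 35.2 and 35.4 CPM under the control ASO and 11.2 and 6.61 CPM under the CELF2 ASO, and fell 3.94-fold (edgeR adjusted p = 0.000369).

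RRAGC and RRAGD, the Rag GTPases that bind mTORC1 in their GDP-bound state, were both higher. RRAGC, on chromosome 1 (38838198 to 38859823, minus strand), had 5.18 and 5.8 CPM under the control ASO and 9.95 and 16.6 CPM under the CELF2 ASO. Both CELF2 ASO libraries were higher, but they differed from each other by 1.67-fold, nearly as much as the 1.72-fold gap between the closest libraries of the 2 groups. RRAGC rose 2.41-fold, or 1.27 in log2 units (SE 0.24, edgeR adjusted p = 0.0037). The log2 value was 0.85 without CELF2_LNA_ASO replicate 2 and 1.61 without CELF2_LNA_ASO replicate 1. These fits take their spread from the control pair alone, so they cannot test the spread between the CELF2 ASO libraries.

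RRAGD, on chromosome 6 (89364636 to 89412270, minus strand), had 37.6 and 36.4 CPM under the control ASO and 48.1 and 50.1 CPM under the CELF2 ASO. The groups did not overlap and both pairs were close. RRAGD rose 1.32-fold, or 0.41 in log2 units (SE 0.08, edgeR adjusted p = 0.00339). Leaving out control_LNA_ASO replicate 1 gave an adjusted p of 0.05004 and leaving out control_LNA_ASO replicate 2 gave 0.0853, both short of the threshold. Per kilobase, RRAGC made up 11.9% and 13.5% of the summed level of both genes under the control ASO and 16.9% and 24.5% under the CELF2 ASO. Another gene on the same strand covers 22.9% of the RRAGC exon bases and held 0 to 2 counts per library. How reads in these shared bases were counted is not given in the sources used here. The partner genes RRAGA, at 36.2 ± 2.04 and 33.9 ± 3.37 CPM, and RRAGB, at 3.76 ± 0.137 and 3.71 ± 0.213 CPM (control and CELF2 ASO, SD, n = 2), showed no call (edgeR adjusted p = 0.453 and 0.93; 0.0104 for RRAGA when CELF2_LNA_ASO replicate 2 was left out), and both differences changed sign with library totals alone.

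**Figure D3:**
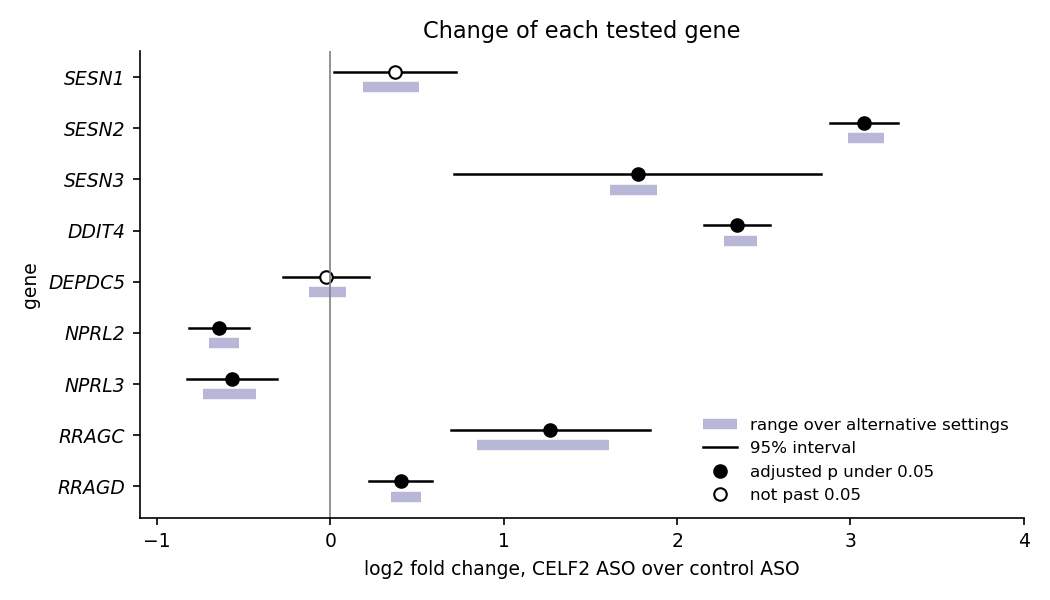
Log2 fold change of the 9 tested genes, CELF2 ASO over control ASO, with its 95% interval as a line and the range over the alternative settings as a bar beneath, and filled points for an adjusted p under 0.05. SESN2 (3.08) and DDIT4 (2.34) lie far to the right with short intervals, SESN3 (1.77) and RRAGC (1.27) have wide ones, and the value for DEPDC5 (-0.02) lies at 0 and takes either sign over the settings.

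The order of the genes by level per kilobase differed between the groups. In the control libraries DDIT4 was highest (23.3 ± 1.1 CPM per kb), followed by NPRL3 (18.9 ± 0.42), NPRL2 (16.8 ± 0.0894), SESN2 (15.9 ± 0.997), RRAGD (7.3 ± 0.165), SESN1 (1.72 ± 0.0171), DEPDC5 (1.17 ± 0.0825) and RRAGC (1.06 ± 0.0842), all SD with n = 2. NPRL2 and SESN2 differed by less than the SD of SESN2, and the libraries of DEPDC5 and RRAGC overlapped. In the CELF2 ASO libraries SESN2 (134 ± 2.94 CPM per kb) and DDIT4 (119 ± 5.48) came first, ahead of NPRL3 (12.8 ± 2.07), NPRL2 (10.8 ± 0.327), RRAGD (9.67 ± 0.278), RRAGC (2.57 ± 0.906), SESN1 (2.22 ± 0.376) and DEPDC5 (1.15 ± 0.0384). There NPRL3 and NPRL2 differed by less than the SD of NPRL3, and RRAGC and SESN1 overlapped. SESN3 and CASTOR1 were lowest in both groups. These lengths join all GENCODE 29 exons of a gene, which understates the level of genes with long or retained-intron transcripts such as DEPDC5 and NPRL2.

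The rest of the amino acid sensing machinery was called about as often as any gene. Of 40 tested genes in 9 lists (GATOR2, KICSTOR, Ragulator, the other Rag genes, FLCN and FNIP, other sensors, TSC and RHEB, mTORC1 subunits, AMPK and LKB1), 22 were called, 11 higher and 11 lower, with a median log2 fold change of -0.08. Over all tested genes 55.5% were called, 27.5% higher and 27.9% lower, with a median of 0.04. Among the 12754 tested protein-coding genes, a closer background, 63.3% were called, with a median of -0.05. The genes called higher were 6 by DESeq2, 6 without control_LNA_ASO replicate 1 and 3 without control_LNA_ASO replicate 2, and those called lower were 10 to 16 with a library left out. In GATOR2, which restrains GATOR1, 1 of 5 genes fell (2 with relative log expression scaling, and 3 with no filter or without CELF2_LNA_ASO replicate 1) and none rose. That gene was SEH1L, also a nuclear pore subunit, which fell 1.87-fold (edgeR adjusted p = 9.7e-05). In KICSTOR, which tethers GATOR1 to the lysosome, 1 of 3 genes analysed rose and 1 fell. KICS2 rose 1.42-fold (edgeR adjusted p = 0.00946; 0.166 when control_LNA_ASO replicate 2 was left out) and ITFG2 fell 1.48-fold (0.0151; 0.0523 by library totals and 0.117 when control_LNA_ASO replicate 1 was left out).

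All 5 genes of Ragulator, the lysosomal anchor of the Rag pair, were called, 2 higher and 3 lower, against 55.5% of all tested genes. No list was tested as a set. LAMTOR1, the membrane anchor, fell 1.62-fold from 44.9 and 46.9 to 28.2 and 28.3 CPM (edgeR adjusted p = 0.000289), and LAMTOR4 and LAMTOR5 fell by 0.42 and by 0.54 on the log2 scale. LAMTOR2 rose 1.29-fold (edgeR adjusted p = 0.00642) and LAMTOR3 1.39-fold (adjusted p = 0.0209). Neither rise was called when control_LNA_ASO replicate 1 (0.114 and 0.245) or control_LNA_ASO replicate 2 (0.0674 and 0.1) was left out, and DESeq2 did not call LAMTOR3 (0.0871). Of FLCN, FNIP1 and FNIP2, which activate RRAGC and RRAGD by GTP hydrolysis, 2 of 3 rose. FNIP1 had 29.3 and 30.9 CPM under the control ASO and 39.2 and 49.9 CPM under the CELF2 ASO (edgeR adjusted p = 0.00597), and FLCN rose 1.34-fold (0.0195; 0.0661 by DESeq2, and 0.155 or 0.161 when control_LNA_ASO replicate 1 or 2 was left out).

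Among 5 other sensors, 2 rose and 2 fell. LARS1, the leucyl-tRNA synthetase, rose 1.63-fold (edgeR adjusted p = 0.00016). SAMTOR, the S-adenosylmethionine sensor, rose 1.64-fold (edgeR adjusted p = 0.0328; 0.0651 by DESeq2 and 0.223 when control_LNA_ASO replicate 2 was left out). CASTOR2 (above) and SLC38A9, the lysosomal arginine transporter and sensor, fell. SLC38A9 fell 1.27-fold (edgeR adjusted p = 0.0154; 0.0697 by library totals, and 0.155 or 0.0766 when control_LNA_ASO replicate 1 or 2 was left out). In the TSC and RHEB list none of 4 was called lower (2 without CELF2_LNA_ASO replicate 1 and 1 without CELF2_LNA_ASO replicate 2) and 1 rose, TBC1D7, by 1.4-fold (edgeR adjusted p = 0.00946; 0.0834 when control_LNA_ASO replicate 2 was left out), and TSC2 differed by -0.12 in log2 units without a call (0.348; 9.22e-07 when CELF2_LNA_ASO replicate 1 was left out).

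Of 5 mTORC1 subunit genes, 3 were called lower and 0 higher, against 27.9% and 27.5% of all tested genes. With DESeq2, limma-voom, the 1 CPM filter or the replicate block, 4 were called lower. The median log2 change was -0.95. AKT1S1, which encodes the inhibitory subunit PRAS40, fell 2.33-fold from 96 and 99.9 to 45.5 and 38.4 CPM (edgeR adjusted p = 4.57e-05). MLST8 fell 1.93-fold and RPTOR, the substrate-binding scaffold, 1.37-fold (edgeR adjusted p = 0.000955 and 0.00125). The kinase gene MTOR had 284 and 276 CPM under the control ASO and 322 and 286 CPM under the CELF2 ASO without a call (edgeR adjusted p = 0.262; 0.000454 when CELF2_LNA_ASO replicate 2 was left out). DEPTOR, an inhibitory subunit highly expressed in some myelomas, had 213 and 216 CPM under the control ASO and 129 and 69.6 CPM under the CELF2 ASO. Both were lower, but they were 1.85-fold apart, and edgeR's test fell short (adjusted p = 0.0591). DESeq2 (0.021), limma-voom (0.00555), the 1 CPM filter (0.0499) and the replicate block (0.0254) called DEPTOR lower. Without control_LNA_ASO replicate 1 its log2 value was -1.15, and without control_LNA_ASO replicate 2 it was -1.13. Its log2 value was -0.75 without CELF2_LNA_ASO replicate 2 and -1.62 without CELF2_LNA_ASO replicate 1. The fits without a CELF2 ASO library take their spread from the control pair alone.

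Of 8 tested AMPK and LKB1 genes, 3 rose (5 without CELF2_LNA_ASO replicate 1, and 1 without any other single library) and 1 fell, with PRKAB2, a regulatory subunit of this energy sensor, 2.46-fold higher (edgeR adjusted p = 0.000429) and STK11, which encodes LKB1, 1.32-fold lower (adjusted p = 0.00469). Of 10 tested substrates and outputs of mTORC1, 4 rose and 3 fell, with a median of -0.00 on the log2 scale. EIF4EBP1, a translation repressor that mTORC1 inactivates, rose 1.65-fold (edgeR adjusted p = 0.000179), and the autophagy gene ATG13 1.44-fold (adjusted p = 0.000595). RPS6KB2, a kinase gene of the S6K family, fell 1.8-fold and the cap-binding factor gene EIF4E 1.77-fold (edgeR adjusted p = 9.15e-05 and 0.000142). Of 4 MiT/TFE genes, whose factors are held in the cytoplasm through RRAGC and RRAGD, 2 rose and 1 fell, TFE3 1.44-fold higher and TFEB 1.59-fold lower (edgeR adjusted p = 0.000653 and 0.00337). The other rise, TFEC by 1.58-fold (edgeR adjusted p = 0.0243), was not called by DESeq2 (0.0582) or without control_LNA_ASO replicate 2 (0.125) or CELF2_LNA_ASO replicate 2 (0.0574). All 5 ubiquitin ligase genes of the pathway were called, 2 higher and 3 lower. Over all tested genes 55.5% were called, 27.5% higher and 27.9% lower. KLHL22, an adaptor that marks DEPDC5 for degradation, rose from 0.643 and 0.938 to 3.1 and 3.22 CPM (edgeR adjusted p = 0.000454), and RNF152, a ligase for RRAGA, from 0.286 and 0.256 to 1.01 and 1.05 CPM (adjusted p = 0.00285). RNF152, like SESN3, entered the test only through the CELF2 ASO libraries. SKP2, CUL3 and RNF167 fell, by 1.93-, 1.56- and 1.33-fold. The mRNA level does not measure the activity of mTORC1 or of any of these proteins.

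The ATF4 stress axis, known from other work to induce SESN2 and DDIT4, was higher in all genes listed. Whether it had a part in the rises of SESN2 and DDIT4 here was not tested. All 8 genes of the ATF4 list were called higher, against 27.5% of all tested genes. Their median log2 fold change was 2.53, against 0.04 over all tested genes. This list was chosen with earlier results of these data known, so neither comparison is independent of these data. ATF4 had 248 and 258 CPM under the control ASO and 1153 and 1270 CPM under the CELF2 ASO (edgeR adjusted p = 4.19e-06). CHAC1, a glutathione-degrading enzyme gene, rose 11.2-fold (adjusted p = 2.63e-06), TRIB3 5.92-fold and the asparagine synthetase gene ASNS 5.66-fold. Of 5 amino acid transporters, 4 rose, SLC7A11, the cystine carrier, by 4.92-fold (edgeR adjusted p = 3.96e-06), while SLC7A5, the leucine carrier, had 1132 and 1176 CPM under the control ASO and 1146 and 964 CPM under the CELF2 ASO without a call (adjusted p = 0.285; 0.0377 with no filter and 1.5e-07 when CELF2_LNA_ASO replicate 1 was left out).

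**Figure D4:**
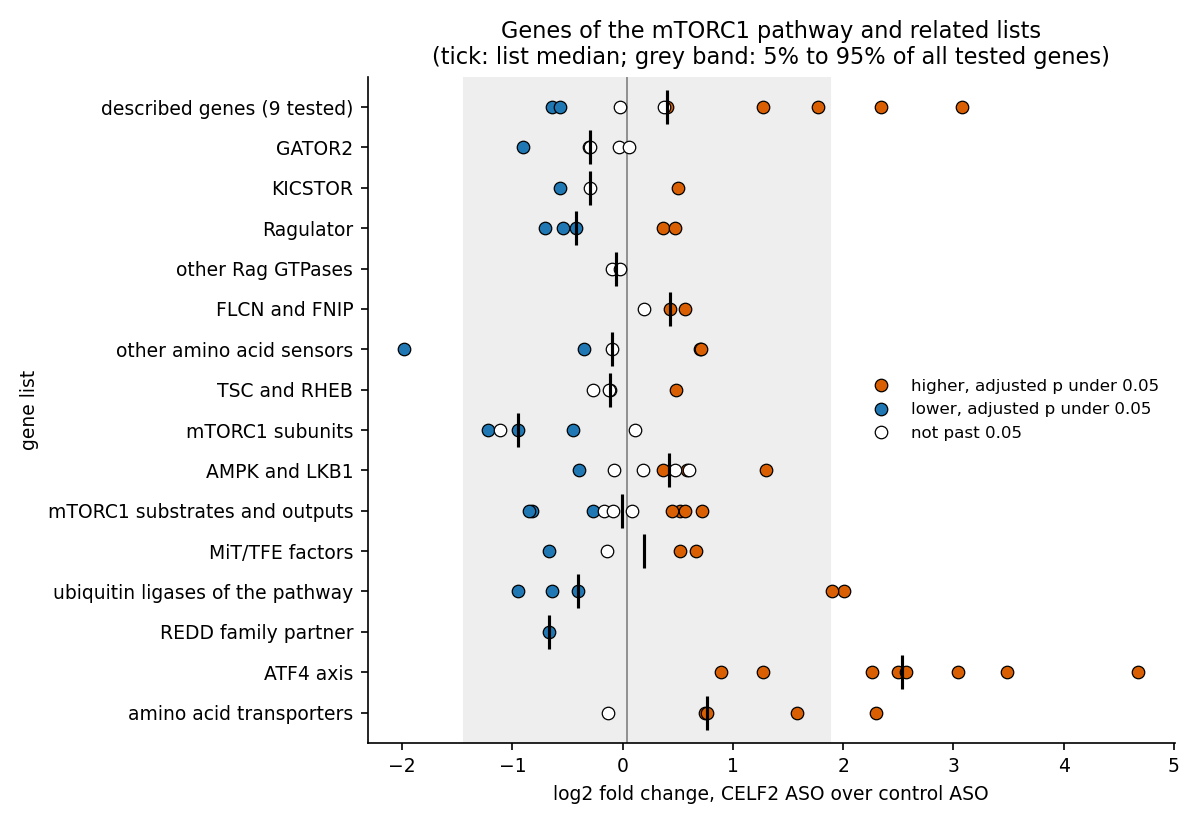
Log2 fold change of each tested gene, CELF2 ASO over control ASO, by list, with a tick at each list's median, colours for genes called higher or lower and a grey band from the 5% to the 95% quantile of all tested genes (-1.44 to 1.88). Most machinery genes lie inside the band on both sides of 0, and CASTOR2 lies to its left. SESN2, DDIT4, 6 of the 8 ATF4-list genes, KLHL22, RNF152 and SLC7A11 lie to its right. The 2 other Rag genes and DEPDC5 lie near 0 and change sign with library totals alone.

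The genes whose 4 library values lay nearest to those of each sestrin were found by Euclidean distance on log2 CPM centred on the control mean, among 12748 protein-coding genes and over only 4 libraries. For SESN2 these were ASS1 (distance 0.13, log2 fold change 2.99), SDC3 (0.17, 3.21) and AZGP1 (0.18, 3.08). For SESN1 they were TMEM237 (0.04, log2 fold change 0.37), TMEM129 (0.05, 0.38) and PTPRM (0.05, 0.41). For SESN3 they were CSRNP2 (0.04, log2 fold change 1.40), APLF (0.06, 1.44) and LYSMD1 (0.08, 1.49), whose fold changes are below that of SESN3. The log2 CPM used for the distance add a prior count of 2, which shrinks differences of genes as low as SESN3.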

How the data were processed

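Whole-number read counts per gene were deposited by the authors for 4 libraries of RPMI 8226 cells, and the values show no normalization. The submitters' processing notes list GRCh38, STAR 2.7.11b, featureCounts 2.0.8 of Subread, bcl2fastq and Salmon 1.10.0, with no order. The annotation release, strandedness and handling of multi-mapping reads are each not given in the sources used here. The labels' texts name both poly(A) selection and RNase H depletion of ribosomal RNA.

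Of 79029 rows, 97 were not Ensembl genes (1 to 3 counts per library) and were left out. Symbols came from a name table (61481 genes; SAMTOR through its older symbol in RefSeq GRCh38.p14), and positions and exon lengths from GENCODE 29 on GRCh38. The test was run with edgeR 4.0.16 under R 4.3.3: filterByExpr (minimum count 10, minimum total 15), TMM scaling, the two-sided robust quasi-likelihood test without covariates and Benjamini-Hochberg adjustment over all 19511 genes, with a threshold of 0.05. The standard error is the absolute log2 fold change over the square root of F, and 95% intervals use the fit's degrees of freedom. The procedure was tested on simulated counts with the same spread in both groups and few genes changed. Neither holds for these data, so the simulation does not cover them. Alternatives used limma 3.58.1 and DESeq2 1.42.0. Within each pair, the libraries differed by more than sampling noise (chi-square per degree of freedom 3.38 for the control and 18.5 for the CELF2 ASO pair).

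The genes and lists were chosen with earlier results of these data known. Named were the 10 genes and CELF2, the smallest adjusted p in each direction of each list, further list members given with their values, and the 3 nearest patterns per sestrin. CYB561D2 and MPG were added for their overlap, after their values were seen. Some genes of the lists are not reported here. Counting intervals cover counting error only.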

Additional observations from a re-analysis of the deposited data

How the results depend on the processing

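Over the 11 alternatives, SESN2, DDIT4, NPRL2, NPRL3 and RRAGC kept their direction and their call in each. RRAGD lost its call in 2 of 11, SESN3 in 4 of the 10 that tested it, and SESN1 gained one in 3 of 11. The number of the 10 genes called higher was 3 to 5 when a library was left out, with 3 without either control library, where SESN3 and RRAGD were lost. The number called lower was 2 throughout. With a library left out, the spread comes from the other group's pair, which the lone library is assumed to share. The log2 fold change of DEPDC5 was 0.092 with library totals alone, 0.0274 with the 1 CPM filter and -0.125 to 0.0211 with a library left out. That of RRAGA was 0.0184 with library totals alone and -0.219 to 0.00865 with a library left out. The RRAGB log2 fold change was 0.10 with library totals alone, 0.0315 with the 1 CPM filter and -0.0828 to 0.0162 with a library left out. The cause was not tested. Library totals alone moved the median of all genes from 0.04 to 0.16, so these positive values lie below that median. The numbers in the labels did not pair the libraries (correlation of deviations 0.03), and with them as a replicate block 5407 genes were called higher and 5402 lower, against 5372 and 5451 without it, and 5 and 2 of the 10 genes. The block brought DEPTOR past the threshold (adjusted p = 0.0254), and it moved the lower calls from 1 to 3 in GATOR2, from 0 to 1 in TSC and RHEB and from 11 to 15 over the 9 machinery lists. Of 506 other values, 465 kept direction and call, 23 lost a call, 13 gained one and 5 changed sign. The low counts of SESN3 and CASTOR1 limit what can be said of them.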
